A study of Mus musculus with 6 samples.

Results

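The mouse HoxD cluster holds 9 Hox genes, Hoxd1, Hoxd3, Hoxd4, Hoxd8, Hoxd9, Hoxd10, Hoxd11, Hoxd12 and Hoxd13, and all 9 were found by symbol among the 29955 genes of the expression table. The RNA-seq data came from 6 libraries of primary mouse embryonic fibroblasts (MEFs) at passage 3, of which 3 were labelled Rnf40+/+ and 3 Rnf40-/-, and they address how loss of RNF40, the E3 ubiquitin ligase that acts with RNF20 to monoubiquitinate histone H2B, changes transcript levels. The methods describe the MEFs as derived from embryos with a ubiquitous, tamoxifen-inducible Rosa26-CreERT2 transgene and both Rnf40 alleles carrying loxP sites around exons 3 and 4. Deletion was induced by passaging the cells in 250 nM 4-hydroxytamoxifen (4-OHT) for 5 days and growing them for 3 more days without it. They do not say whether the Rnf40+/+ cultures were such cells without 4-OHT or cells of another genotype, or what these cultures received in its place, so effects of the deletion and of the treatment cannot be told apart. The sources also do not say whether the 3 libraries of a genotype came from separate embryos, and the p-values measure only the spread between these libraries.

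Hox genes encode homeodomain transcription factors that give cells their position along the head-to-tail axis of the embryo and, for the HoxD and HoxA clusters, along the limb. The genes of a cluster lie in the order in which they are used: Hoxd1, Hoxd3 and Hoxd4 act early and in anterior regions, Hoxd8 and Hoxd9 in the trunk and proximal limb, and Hoxd10 to Hoxd13 in the posterior body, genital bud and digits. Polycomb complexes keep unused genes of the cluster silent through methylation of histone H3 lysine 27, Trithorax complexes keep used genes active, and cultured fibroblasts retain much of the Hox pattern of the site they came from.

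On the mm9 build the cluster spans 96.834 kb of chromosome 2, from 74506367 to 74603200, with every gene on the plus strand and Hoxd13 at the lower coordinate. In the GENCODE gene annotation used here, 2 of the 9 genes cannot be counted apart with confidence. The transcript models that the authors mapped to were not examined. The Hoxd3 and Hoxd4 models lie on the same strand and share 1725 exonic bases, which are 67.4% of the exonic bases of Hoxd4 and 29.8% of those of Hoxd3. The library kit kept strand, but whether the counting used it is not given in the sources used here. Hoxd3 also shares 347 exonic bases with the antisense gene 1700109F18Rik, and Hoxd10 and Hoxd11 share 104 and 455 exonic bases with the overlapping gene Gm20440.

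The sequence just before the start site is shown for 3 genes with different behaviour in these MEFs: Hoxd8, the most abundant, Hoxd10, the one gene with enough reads to test that had a higher mean in Rnf40-/- MEFs, and Hoxd12, for which no read was counted. Each is the 250 bases before the RefSeq start on GRCm38.p6, a different build from mm9, written 5′ to 3′ with CpG dinucleotides, the sites of DNA methylation, in capitals.

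Hoxd8 (chr2:74704365-74704614, plus strand): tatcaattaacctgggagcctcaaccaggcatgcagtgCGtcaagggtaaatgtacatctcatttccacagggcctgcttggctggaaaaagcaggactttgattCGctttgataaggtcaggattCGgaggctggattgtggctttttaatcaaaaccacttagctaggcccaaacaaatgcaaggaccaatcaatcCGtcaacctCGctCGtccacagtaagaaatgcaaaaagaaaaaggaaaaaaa

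Hoxd10 (chr2:74691641-74691890, plus strand): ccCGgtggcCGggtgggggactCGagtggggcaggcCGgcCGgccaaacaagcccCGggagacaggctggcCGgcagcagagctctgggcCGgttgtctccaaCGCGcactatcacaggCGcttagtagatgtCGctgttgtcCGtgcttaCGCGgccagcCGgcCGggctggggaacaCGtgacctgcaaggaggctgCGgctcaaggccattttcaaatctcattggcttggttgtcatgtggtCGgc

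Hoxd12 (chr2:74674763-74675012, plus strand): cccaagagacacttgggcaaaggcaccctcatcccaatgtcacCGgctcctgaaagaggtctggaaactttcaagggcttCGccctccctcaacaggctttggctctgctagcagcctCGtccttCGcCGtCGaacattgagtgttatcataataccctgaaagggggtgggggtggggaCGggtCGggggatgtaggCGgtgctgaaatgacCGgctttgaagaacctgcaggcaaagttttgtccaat

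The window of Hoxd8 held 6 CpG dinucleotides, that of Hoxd10 held 20 and that of Hoxd12 held 10, against a median of 6 and quartiles of 2 and 16 over 32851 mouse promoter windows of the same length. Over all members the count ran from 2 at the first of 2 starts of Hoxd11 to 31 at Hoxd13. Thus neither the most abundant gene nor the gene without a read stood outside the quartiles of all promoters. Hoxd10, Hoxd1 (24), Hoxd13 and the second start of Hoxd11 (20) lay above the upper quartile, and no window lay below the lower one. The CCAAT letters, searched on both strands, were found in the windows of Hoxd1, Hoxd3, Hoxd4, Hoxd8, Hoxd10, Hoxd12 and Hoxd13, and in 33.8% of all promoter windows. The TATAAA letters were found at Hoxd4 and Hoxd13, and in 12.4% of all windows. A match describes the letters of the window and is not evidence of a bound factor.

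In Rnf40+/+ MEFs transcripts of the cluster were concentrated in its middle. Levels of different genes were compared as normalized count per kb, the deposited value divided by the length of the longest annotated transcript. Hoxd8 led with 90.1 ± 0.618 (SD, n = 3), followed by Hoxd9 with 51.9 ± 12.6, Hoxd4 with 35.5 ± 7.59 and Hoxd3 with 31.4 ± 3.78 normalized counts per kb. Hoxd10 was at 7.98 ± 0.247, Hoxd13 at 2.34 ± 1.08, Hoxd11 at 1.25 ± 0.939 and Hoxd1 at 0.572 ± 0.990 per kb, and Hoxd12 had no read in any library. The 3 libraries separated Hoxd8 from Hoxd9, Hoxd3 from Hoxd10 and Hoxd10 from Hoxd13, whereas every other pair of neighbours in this order overlapped. Hoxd4 overlapped with both Hoxd9 and Hoxd3, whereas Hoxd9, at 42.5 per kb or more, lay above Hoxd3, at 34.5 per kb or less. With the summed length of all exons in place of the longest transcript Hoxd3 came to a mean of 19.1 per kb. It then no longer overlapped with Hoxd4, at 21.0 per kb or less against 28.7 per kb or more.

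**Figure D1:**
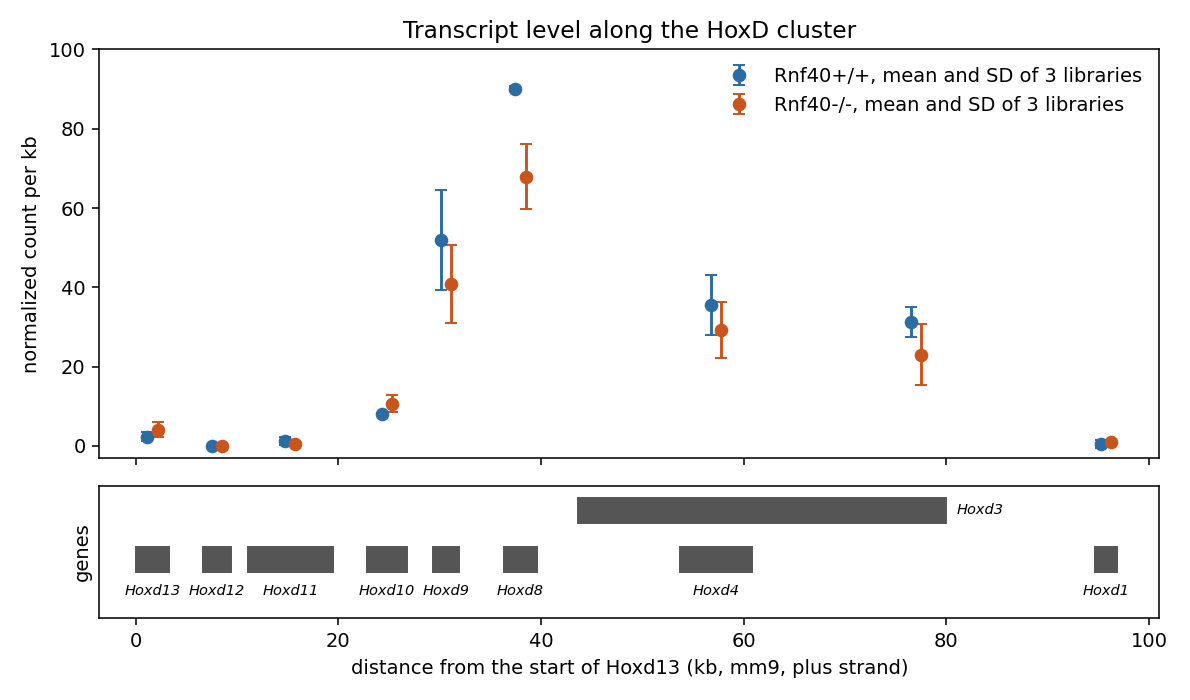
Mean normalized count per kb of each HoxD gene (vertical axis, bars for the SD of 3 libraries) against its distance from the start of Hoxd13 in kb, for Rnf40+/+ (blue) and Rnf40-/- MEFs (orange), with the gene models below. Points stand at the middle of each gene, except that of Hoxd3, which is drawn near its 3′ end for clarity. Hoxd8 peaks at 90.1 per kb in Rnf40+/+ and 67.9 per kb in Rnf40-/- MEFs, and the genes at both ends of the cluster lie near 0.

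Hoxd8 alone accounted for 36.6 to 44.8% of the summed per-kb level of the cluster in the Rnf40+/+ libraries, and Hoxd8 and Hoxd9 together for 63.4 to 66.1%. The cluster was transcribed at low to moderate levels. The mean normalized count of Hoxd8 stood at the 42.6 percentile of the 16378 genes tested and that of Hoxd10 at the 10.5 percentile. All 9 genes together had between 451 and 812 reads in a library of 17053436 to 26344170 reads, so counting error is a large part of the precision here. HoxD genes made up 3.55 to 4.59% of the summed per-kb level of 38 Hox genes with a usable length in Rnf40+/+ MEFs and 3.81 to 4.11% in Rnf40-/- MEFs, ranges that overlapped.

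Deletion was checked first on Rnf40 itself. Its normalized counts were 1278, 1195 and 1096 in Rnf40+/+ and 439, 519 and 487 in Rnf40-/- MEFs. Every Rnf40-/- library was below every Rnf40+/+ library, with a log2 fold change of -1.30 ± 0.09 (SE, adjusted p = 4.25e-07, limma with Benjamini-Hochberg adjustment). Reads from exons outside the deleted ones could still be counted for this gene. Among the Rnf40+/+ libraries, replicates 1 and 3 lay apart on the second principal component of all genes, at 35.7 and -31.9, whereas the Rnf40-/- libraries lay between -2.08 and 2.29, and HoxD values without each library are given where they change a result.

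Of the 9 HoxD genes, 5 had enough reads to be tested, namely Hoxd3, Hoxd4, Hoxd8, Hoxd9 and Hoxd10, and Hoxd8 alone passed an adjusted p of 0.05, with a lower level in Rnf40-/- MEFs. Over all 16378 genes tested, 24.1% were lower and 23.3% higher at this threshold, 47.4% in either direction, so that 1 of 5 lower and 0 of 5 higher was not a larger share than that of genes in general. Of the 5, 4 had a negative and 1 a positive log2 fold change, with a median of -0.34 against a median of -0.0035 over all genes. The study's criteria for a regulated gene, a mean above 15, an unadjusted p under 0.05 and a log2 fold change beyond 1 in either direction, were met by 5.7% of genes as lower and 4.25% as higher, and by 0 HoxD genes in limma. At an unadjusted p under 0.05 limma again gave 1 HoxD gene, and edgeR and DESeq2 each called Hoxd8 and no other member at an adjusted p under 0.05. The genotypes did not overlap in 2 of the 5 genes, Hoxd8 with all Rnf40-/- libraries below and Hoxd10 with all above, whereas they did not overlap in 56.5% of all genes tested, with Rnf40-/- below in 28.7% and above in 27.8%. In bulk RNA, fewer cells that transcribe a gene and less RNA per cell cannot be told apart.

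**Figure D2:**
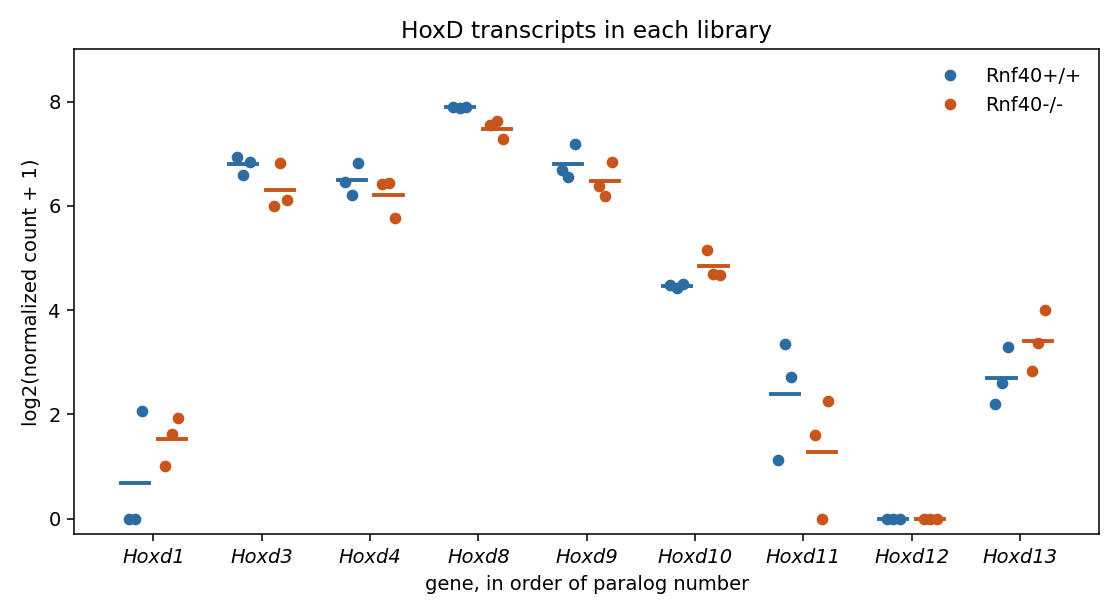
Level of the 9 HoxD genes in each library as log2(normalized count + 1), with 1 point for each of 3 Rnf40+/+ (blue) and 3 Rnf40-/- (orange) libraries and a line at the mean. Hoxd8 is the highest gene in both genotypes and its orange points lie below the blue ones, Hoxd10 shows the opposite order, and Hoxd12 is at 0 throughout.

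Hoxd8, which patterns the trunk together with its paralogs Hoxb8 and Hoxc8, fell modestly. Its normalized counts were 238, 236 and 239 in Rnf40+/+ MEFs, from 199, 231 and 299 reads, and 186, 196 and 155 in Rnf40-/- MEFs, from 182, 188 and 164 reads. All 3 Rnf40-/- libraries lay below all Rnf40+/+ libraries, the third of them lowest. The mean went from 237 ± 1.63 to 179 ± 21.5 (SD, n = 3), or 75.4% of the Rnf40+/+ level, with a log2 fold change of -0.41 ± 0.13 (SE, 95% confidence interval -0.69 to -0.14, adjusted p = 0.0174, limma with Benjamini-Hochberg adjustment). Without replicate 3 of Rnf40-/- it was -0.31 with an adjusted p of 0.075 in limma, and the call was lost. With any other library left out, the call held.

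The Rnf40+/+ libraries agreed more closely on Hoxd8 than read counting allows on average. Counting alone would give its normalized count an SD of 15.4 in Rnf40+/+ and 13.4 in Rnf40-/- MEFs, against observed SDs of 1.63 and 21.5. The observed SD of Hoxd8 in Rnf40+/+ libraries was 0.0099 on the log2 scale, whereas the median over all genes tested was 0.145. In limma the variance of a gene is moderated by that of genes of like abundance, so the test did not rest on the small SD by itself.

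Anterior to Hoxd8, the means of Hoxd3 and Hoxd4 were lower in Rnf40-/- MEFs without passing the test. Hoxd3, which acts in the neck and upper vertebrae, had normalized counts of 122, 95.9 and 114 in Rnf40+/+ and 63.2, 113 and 68.0 in Rnf40-/- MEFs. In 2 of the Rnf40-/- libraries it lay below all Rnf40+/+ libraries, but replicate 2 fell among them. The log2 fold change was -0.48 ± 0.22 (SE, 95% confidence interval -0.97 to 0.01, adjusted p = 0.0973, limma with Benjamini-Hochberg adjustment). Without replicate 2 of Rnf40-/- it was -0.74 with an adjusted p of 0.0137 in limma, so that 1 library decided whether Hoxd3 was called. Without replicate 1 of Rnf40-/- the log2 fold change of Hoxd3 was -0.33, with an adjusted p of 0.307 in limma. Without replicate 3 it was -0.38, with an adjusted p of 0.263 in limma.

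Hoxd4, a retinoic acid-responsive gene of the hindbrain and neck, had normalized counts of 87.2, 73.4 and 112 in Rnf40+/+ and 84.6, 85.6 and 53.8 in Rnf40-/- MEFs. The genotypes overlapped, with replicate 3 lowest in Rnf40-/- and highest in Rnf40+/+. The log2 fold change was -0.29 ± 0.23 (SE, 95% confidence interval -0.79 to 0.21, adjusted p = 0.33, limma with Benjamini-Hochberg adjustment). Because the GENCODE models of Hoxd3 and Hoxd4 share exons, reads could pass from one to the other in the counting, and their separate values are uncertain.

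Hoxd9, expressed in the trunk and proximal limb, ranged from 92.8 to 145 normalized counts in Rnf40+/+ MEFs, with values of 103, 92.8 and 145, and from 72.0 to 113 in Rnf40-/- MEFs, with values of 82.6, 72.0 and 113. The third library was the highest of each genotype, and the genotypes overlapped. The mean was 113 ± 27.5 in Rnf40+/+ and 89.3 ± 21.4 in Rnf40-/- MEFs, with a log2 fold change of -0.34 ± 0.22 (SE, 95% confidence interval -0.82 to 0.13, adjusted p = 0.222, limma with Benjamini-Hochberg adjustment). Leaving out 1 library at a time moved it between -0.52, without replicate 3 of Rnf40-/-, and -0.15, without replicate 3 of Rnf40+/+.

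Hoxd10, the first of the posterior genes and a regulator of limb motor neurons and the forearm, was the one tested member with a higher mean in Rnf40-/- MEFs. Its normalized counts were 21.5, 20.4 and 21.6 in Rnf40+/+ MEFs, from 18, 20 and 27 reads, and 34.7, 25.0 and 24.5 in Rnf40-/- MEFs, from 34, 24 and 26 reads. All Rnf40-/- libraries lay above all Rnf40+/+ libraries, as they did for 27.8% of genes tested, and the first was furthest from the others. The log2 fold change was 0.38 ± 0.29 (SE, 95% confidence interval -0.26 to 1.01, adjusted p = 0.312, limma with Benjamini-Hochberg adjustment). Here too the Rnf40+/+ libraries lay closer together than counting gives on average, with an SD of 0.655 against 4.61 from counting alone, and the interval spans both a small fall and a doubling of the level.

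**Figure D3:**
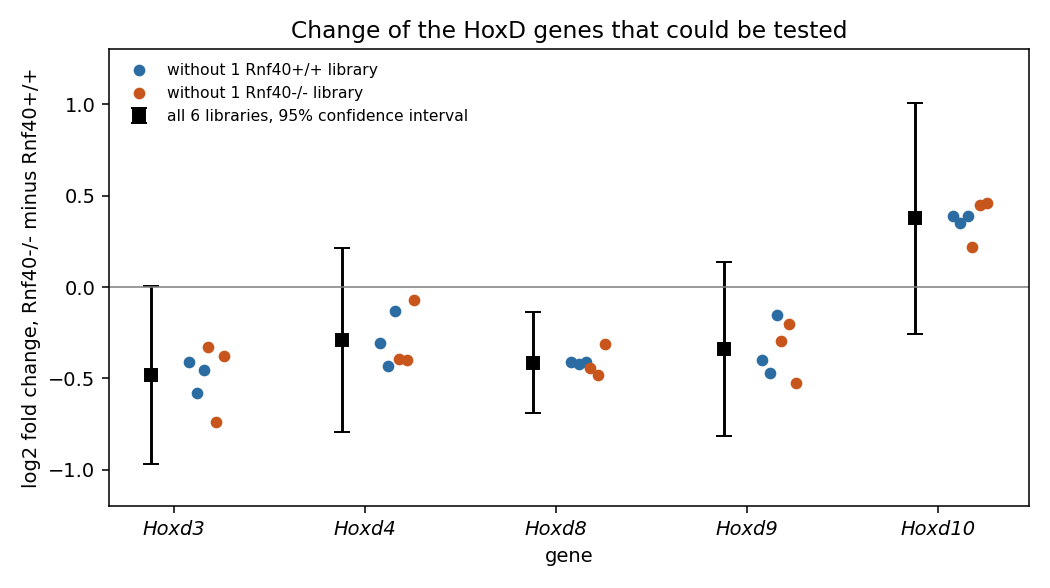
Log2 fold change (Rnf40-/- minus Rnf40+/+) of the 5 HoxD genes tested, as the limma estimate from 6 libraries with its 95% confidence interval (black) and with 1 Rnf40+/+ (blue) or 1 Rnf40-/- library (orange) left out. The interval of Hoxd8, from -0.69 to -0.14, is the one that leaves out 0, and that of Hoxd3 reaches 0.01.

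At the ends of the cluster 4 genes had too few reads to be tested. Hoxd13, the digit and genital gene, had 3, 5 and 11 reads in Rnf40+/+ and 6, 9 and 16 in Rnf40-/- MEFs, or 3.58, 5.10 and 8.78 against 6.12, 9.39 and 15.1 normalized counts. These overlapped, and with every detected gene tested its log2 fold change was 0.71 ± 0.50 (SE, adjusted p = 0.317, limma with Benjamini-Hochberg adjustment). Hoxd11, which shapes the forearm and kidney with its paralogs, had 1, 9 and 7 reads in Rnf40+/+ and 2, 0 and 4 in Rnf40-/- MEFs, again overlapping. In the same fit of every detected gene its log2 fold change was -1.11 ± 0.72 (SE, adjusted p = 0.27, limma with Benjamini-Hochberg adjustment), opposite in sign to that of Hoxd13, and that of Hoxd1 was 0.84 ± 0.65 with an adjusted p of 0.367.

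Hoxd1, the anterior gene used early in the neural tube and in pain-sensing neurons, had 0, 0 and 4 reads in Rnf40+/+ and 1, 2 and 3 in Rnf40-/- MEFs, at or near the limit of detection. Hoxd12 had 0 reads in all 6 libraries, which allows up to 3 reads per library, or 2.40 to 3.58 normalized counts. A difference between the genotypes in these genes was not detectable at this depth. The limit covers counting error only.

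Along the cluster, the share of its posterior end was higher in every Rnf40-/- library. Hoxd10 to Hoxd13 together made up 4.56 to 5.96% of the summed per-kb level in Rnf40+/+ and 7.07 to 9.62% in Rnf40-/- MEFs, and the ranges did not overlap. For single genes, the genotypes did not overlap in 56.5% of those tested. By gene, Hoxd10 made up 3.28 to 3.85% in Rnf40+/+ and 5.05 to 7.44% in Rnf40-/- MEFs, and Hoxd11, with few reads, at most 1.08% and 0.526%. Hoxd13 made up 0.669 to 1.43% in Rnf40+/+ and 1.40 to 3.61% in Rnf40-/- MEFs, ranges that overlapped. Part of the higher posterior share thus came from Hoxd13, which had too few reads to be tested. Hoxd8 and Hoxd9 made up 63.4 to 66.1% in Rnf40+/+ and 57.4 to 65.6% in Rnf40-/- MEFs, and Hoxd1 to Hoxd4 made up 28.0 to 31.8% and 24.8 to 35.5%. Both of these overlapped. The summed level was 221 ± 24.4 in Rnf40+/+ and 177 ± 9.32 normalized counts per kb in Rnf40-/- MEFs. Each share is relative to this sum, which was lower in Rnf40-/- MEFs. Hoxd10, the largest part of the posterior share, did not itself pass the test. No p is given for these sums, since the genes were chosen with results of these data known.

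The paralogs of the other clusters, which encode the proteins most similar to each HoxD protein, were compared by paralog number. In group 8, Hoxb8 fell with a log2 fold change of -0.41 (adjusted p = 0.0042) and Hoxc8 with -0.26 (adjusted p = 0.0184, limma with Benjamini-Hochberg adjustment). All 3 genes of the group thus passed the test as lower, beside 24.1% of all genes tested. The call of Hoxd8 was lost without replicate 3 of Rnf40-/-. In group 3, Hoxa3 fell by 0.69 and Hoxb3 by 0.64 on the log2 scale, while Hoxd3 missed the threshold. In group 4, Hoxb4 fell by 0.77 and Hoxc4 by 0.30, and Hoxa4, at -0.26, and Hoxd4 did not pass.

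In group 9 none of Hoxa9 (0.18), Hoxb9 (-0.09), Hoxc9 (-0.17) and Hoxd9 passed the test, each value being a log2 fold change. In group 10, Hoxa10 rose by 0.38 on the log2 scale (adjusted p = 0.037, limma with Benjamini-Hochberg adjustment), and Hoxc10, at 0.21, did not pass. Hoxd10 had a log2 fold change of the same size as Hoxa10 but a standard error of 0.29 against 0.14. In group 1, Hoxb1, at -0.16, did not pass either. In groups 11 to 13 the HoxD members could not be tested, and neither could Hoxa13, Hoxb13, Hoxc11 and Hoxc12. The genes tested in these groups were Hoxa11, which rose by 0.50, and Hoxc13, which rose by 1.71 on the log2 scale. Whether a HoxD gene changed differently from its paralogs was not tested.

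**Figure D4:**
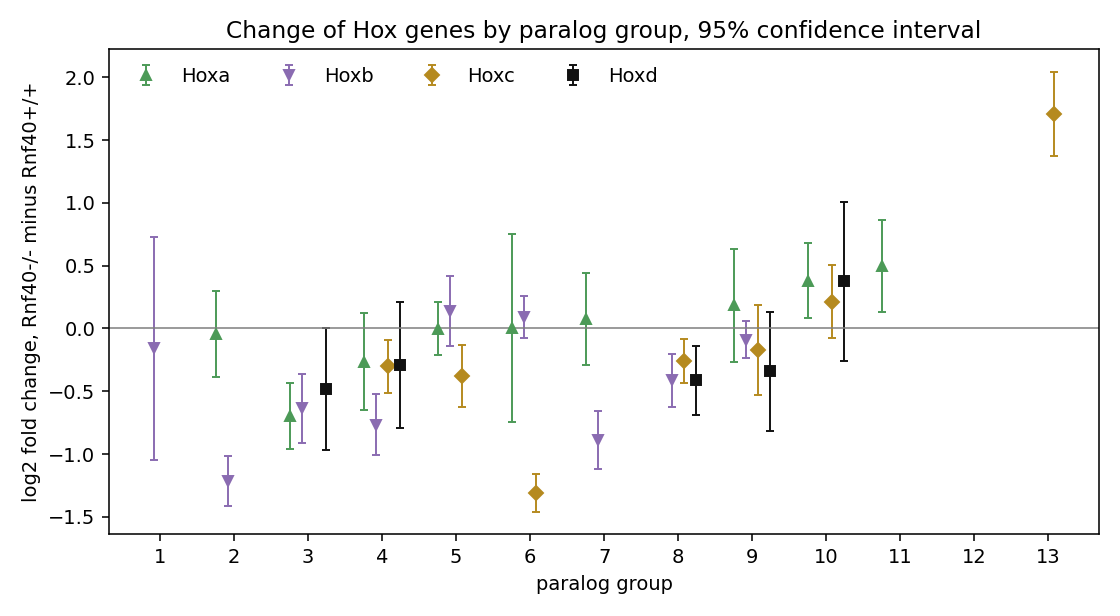
Log2 fold change (Rnf40-/- minus Rnf40+/+) with its 95% confidence interval for 30 of the Hox genes tested, by paralog group and cluster (HoxD as black squares). The group 8 genes all lie below 0, Hoxd10 lies near Hoxa10 at 0.38, and HoxD has no tested gene in groups 11 to 13, where Hoxc13 reaches 1.71.

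By cluster, 1 of 5 HoxD genes tested was lower and 0 higher, and over the 26 genes tested of the HoxA, HoxB and HoxC clusters 10 were lower and 3 higher, with a median log2 fold change of -0.17, beside 24.1% lower and 23.3% higher over all genes. Whether HoxD differed from the other clusters was not tested. The largest changes of Hox genes lay outside HoxD, with Hoxc6 at -1.31 and Hoxb2 at -1.21 (both lower) besides Hoxc13. The summed per-kb level of HoxD, 221 in Rnf40+/+ MEFs, compared with 905 for HoxA, 2338 for HoxB and 2084 for HoxC. The HoxA sum leaves out Hoxa3, which had no usable length and a mean normalized count of 385 in Rnf40+/+ MEFs.

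Cofactors and regulators of HOX proteins were described from lists of known genes, and the counts of each list stand beside the 24.1% of all genes tested that were lower and the 23.3% that were higher. Of the 9 TALE homeodomain cofactors, which bind DNA together with HOX proteins, 5 fell and 3 rose (median log2 fold change -0.24), with Meis1 at -0.95 and Pbx2 at -0.66 among those that fell and Pbx4 at 0.67, Pknox2 at 0.56 and Pknox1 at 0.41 among those that rose. Of 14 upstream regulators tested, 5 fell and 1 rose, including the retinoic acid-degrading enzyme Cyp26b1 (-1.14), the limb bud growth factor Fgf10 (-0.97) and the Hedgehog effector Gli2 (-0.76), while Hand2, a factor of the posterior limb bud, rose by 0.71 on the log2 scale.

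Of 27 Polycomb and Trithorax genes, 11 fell and 9 rose, with a median log2 fold change of -0.01. Among those that fell were Phf19 (-1.23) and Ezh2 (-1.17), which belong to the Polycomb complex that methylates H3 lysine 27, and the H3 lysine 27 demethylase Kdm6b (-0.91). The Polycomb gene Cbx7 rose by 1.05, the H3 lysine 4 methyltransferase Mll1 by 0.76 and the Polycomb partner Mtf2 by 0.50 on the log2 scale. Their part in the levels of the HoxD genes was not tested.

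Of 13 genes tested that flank the cluster, 4 rose and 3 fell, with a median log2 fold change of 0.08, a share near the 47.4% of all genes called in either direction. Lnp, beside the Hoxd13 end, was at -0.07 and Mtx2, beside the Hoxd1 end, at 0.10, and neither passed the test. Evx2, the homeobox gene next to Hoxd13, had no read in any library, as Hoxd12 had none. Further out, Chrna1 rose by 1.23, Atf2 by 0.49 and Chn1 by 0.40, and Ttc30b fell by 0.68, Wipf1 by 0.42 and Agps by 0.20 on the log2 scale. Among 13 factors that mark limbs and body regions, 6 fell and 0 rose, beside 24.1% lower and 23.3% higher over all genes, led by Satb1 (-0.80), Prrx1 (-0.71) and Twist2 (-0.49), while the forelimb gene Tbx5 (-0.16) and the hindlimb genes Tbx4 (0.45) and Pitx1 (0.48) did not pass the test.

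Markers of cell types were followed in the same libraries, since a HoxD level depends on which cells are present. Counts of markers called stand beside 24.1% lower and 23.3% higher over all genes tested. All 10 fibroblast markers were present and fell, with a summed normalized count of 711380 to 787846 in Rnf40+/+ and 417654 to 420547 in Rnf40-/- MEFs. The macrophage markers summed to 5661 to 9702 and 3535 to 3914, with 3 of 8 lower and 1 higher. Most of that sum was Lyz2, with a mean of 5314 in Rnf40+/+ and 2264 in Rnf40-/- MEFs, and the higher gene was Ptprc (1.37 on the log2 scale). The skeletal muscle markers summed to 1711 to 4886 and 438 to 498, mostly Acta1, with means of 2648 and 434. Both muscle genes tested were lower, and Myod1 was at 0 throughout. Cartilage markers summed to 1235 to 1665 and 506 to 592, with 2 of 3 lower. Neural markers summed to 3233 to 4634 and 2214 to 2563, nearly all from Nes and Tubb3, with 1 of 2 lower. Endothelial markers summed to 139 to 279 and 225 to 315, with 3 of 5 higher and 1 lower and Cldn5 at or near 0, and epithelial markers to 37.7 to 95.5 and 54.8 to 73.4, with 1 of 3 higher. The part of such shifts in the HoxD values was not tested.

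Across the 6 libraries the log2 levels most like those of Hoxd8 were those of BC024978 (Pearson r = 0.998), BC030867 (r = 0.995) and Mlh3 (r = 0.994), and 226 genes had an r above 0.95. With genotype separating the libraries along the first principal component, which held 69.5% of the variance, a high r over these 6 points can reflect a shared difference between the genotypes.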

How the data were processed

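Reads from strand-specific libraries of total RNA were mapped by the authors to the mouse reference transcriptome (mm9), and they deposited, as signal, the read count of each gene divided by a DESeq size factor. Bowtie2 2.1.0 and DESeq 1.14.0 are named in the submitters' processing notes. In each library all positive values were whole multiples of 1 read within 0.01 of a read, and reads were recovered from that step. Depth was 17053436 to 26344170 reads in Rnf40+/+ and 18115481 to 20495627 in Rnf40-/- libraries, and libraries of the same genotype differed by more than sampling noise. All genes were fitted together on log2(normalized count + 1) with limma 3.58.1 in R 4.3.3 (lmFit, then eBayes with a trend), genotype as the only term, after filterByExpr of edgeR 4.0.16 on the recovered reads, and Benjamini-Hochberg adjustment covered all 16378 genes tested. Fits were tested on simulated data with fold changes larger than those of the tested HoxD genes, so recovery of changes as small as theirs was not tested. Alternatives were DESeq2 1.42.0, edgeR, other normalizations, filters and pseudocounts, a replicate block, each library left out and, chosen after seeing the data, eBayes without a trend. Transcript lengths and shared exons are from a GENCODE annotation on mm9, whereas the authors mapped to the UCSC mm9 transcriptome. Start-site sequences are from RefSeq on GRCm38.p6. Hoxa3 had no usable length.

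Genes named are all 9 HoxD genes, Rnf40, paralogs of the same number, the 3 genes most correlated with Hoxd8 and, per list, up to 3 called genes with the largest rise and fall. Some genes that it selects are left out here. Others (Lnp, Mtx2, Evx2, Myod1, Cldn5, Tbx4, Tbx5, Pitx1, Lyz2, Ptprc, Acta1, Nes, Tubb3) were named after their values were seen. Members and lists were chosen with earlier results of these data known. Of 20 listed neighbours, 15 were matched by symbol, and the HoxD noncoding transcripts were not analysed here.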

Additional observations from a re-analysis of the deposited data

How the results depend on the processing

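Under 11 other settings of normalization, filter, pseudocount, test, prior variance and replicate block, the count of HoxD genes called was 1 lower and 0 higher each time, and that gene was Hoxd8, with a log2 fold change between -0.41 and -0.40 and an adjusted p between 0.0166 and 0.0333. Leaving out 1 library at a time gave 0 to 2 lower genes: 0 without replicate 3 of Rnf40-/-, where Hoxd8 had an adjusted p of 0.075 in limma, and 2 without replicate 2 of Rnf40-/-, where Hoxd3 joined it. Of 85 fold changes of the 5 tested genes under these settings, 83 kept their direction and side of the threshold and 0 reversed. With a replicate block Hoxd8 was at -0.41 (adjusted p = 0.0168, limma), and the block changed no call among the 5 tested HoxD genes. Deviations of same-numbered libraries correlated at 0.012, 0.017 and 0.021, so the numbers were not taken to pair them. Over all genes, 3531 to 4196 were lower and 3349 to 4021 higher under the other settings, and 3335 to 3886 and 3030 to 3761 with 1 library left out. The share of Hoxd8 in the summed level of Rnf40+/+ MEFs was 39.2 to 43.3% with 1 library left out. Few reads limit Hoxd1, Hoxd10, Hoxd11, Hoxd12 and Hoxd13, and exons shared in the GENCODE annotation limit Hoxd3 and Hoxd4.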
